A study of Mus musculus with 12 samples.

Results

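The genes of the tricarboxylic acid (TCA) cycle and the respiratory chain were followed through 4 histone marks in 2 mouse melanoma cell lines. The list holds 38 of the 21883 protein-coding genes in the RefSeq table used here: 16 TCA cycle genes, among them the succinate dehydrogenase subunits that form complex II, 3 pyruvate dehydrogenase genes, 8 genes of complex I, 4 of complex III, 4 of complex IV, 2 of complex V and the regulator Ppargc1a. Members were chosen by pathway, and each was looked up by its symbol. Their chromatin was read from peaks lying within 1 kb of either end of the gene model and from the peak-covered bases of the 50 kb on each side of those ends.

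Chromatin immunoprecipitation followed by sequencing (ChIP-seq) had been carried out on line 971, labelled wild type (WT) for Kmt2d, and on line 493, labelled Kmt2d mutant. Both lines grew in DMEM/F12 medium with fetal bovine serum, and the labels give neither how the mutation arose nor any other allele. Each line was profiled with 1 library for each of H3K4me1, H3K4me3, H3K27ac and H3K27me3, so each genotype is represented by 1 cell line and no difference below has a replicate check. The 8 deposited peak lists were analysed, and the 4 input libraries were not analysed here.

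The TCA cycle oxidises acetyl groups in the mitochondrial matrix and hands their electrons to the respiratory chain, whose complexes pump protons and so drive the ATP synthase. The enzymes of the cycle and many chain subunits are encoded in the nucleus and carry promoters that are active in most cells, and Ppargc1a encodes a coactivator that raises their transcription together with the factors NRF1, the ETS factor GABP, ERR and YY1. H3K4me3 marks active promoters, H3K27ac active promoters and enhancers, H3K4me1 enhancers and the flanks of promoters, and H3K27me3 Polycomb repression. Kmt2d encodes a methyltransferase that places H3K4me1 mainly at enhancers.

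The promoters of these genes are shown first, because most of the H3K4me3 and H3K27ac peaks described below lay on or beside them; the exceptions are given with the genes. RefSeq promoter windows on GRCm38.p6, from 250 bases before to 50 after the start, were matched to 30 of the 38 members. Atp5a1, Cox4i1, Uqcrc2, Cyc1, Idh3a, Ndufs1, Cox6c and Sdhc were not matched. Capitals mark, on either strand, the NRF1 motif GCGCATGCG and its core GCATGCG, the ETS motif CCGGAAG, the ERR motif AAGGTCA, the YY1 motif AAGATGGCG and its core AAGATGG, and the GC box GGGCGG. A core lies inside its longer motif, so the matches of the pair overlap. A match is a run of letters and no measure of binding.

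The 4 promoters that follow belong to members whose acetylation differed between the lines. Those of Cs (chr10:128337477-128337776, plus strand), which makes citrate from oxaloacetate and acetyl-CoA, of Mdh2 (chr5:135778399-135778698, plus strand), the mitochondrial malate dehydrogenase, and of Ndufs7 (chr10:80249199-80249498, plus strand), a complex I subunit, had an H3K27ac peak within 1 kb of the gene end in mutant cells alone. That of Sdhb (chr4:140961021-140961320, plus strand), the iron-sulfur subunit of succinate dehydrogenase (complex II), had one in WT cells alone.
Cs: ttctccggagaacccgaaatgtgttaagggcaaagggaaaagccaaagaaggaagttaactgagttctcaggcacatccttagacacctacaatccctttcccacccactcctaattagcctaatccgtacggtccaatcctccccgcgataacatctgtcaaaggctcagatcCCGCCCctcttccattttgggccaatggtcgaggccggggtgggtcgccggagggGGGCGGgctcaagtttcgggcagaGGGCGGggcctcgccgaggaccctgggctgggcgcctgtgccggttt
Mdh2: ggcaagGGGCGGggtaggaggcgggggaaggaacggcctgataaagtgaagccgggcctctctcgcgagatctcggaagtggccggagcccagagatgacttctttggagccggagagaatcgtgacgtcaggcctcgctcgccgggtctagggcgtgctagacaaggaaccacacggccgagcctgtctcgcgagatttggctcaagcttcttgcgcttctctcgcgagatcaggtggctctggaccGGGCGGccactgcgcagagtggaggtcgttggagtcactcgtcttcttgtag
Ndufs7: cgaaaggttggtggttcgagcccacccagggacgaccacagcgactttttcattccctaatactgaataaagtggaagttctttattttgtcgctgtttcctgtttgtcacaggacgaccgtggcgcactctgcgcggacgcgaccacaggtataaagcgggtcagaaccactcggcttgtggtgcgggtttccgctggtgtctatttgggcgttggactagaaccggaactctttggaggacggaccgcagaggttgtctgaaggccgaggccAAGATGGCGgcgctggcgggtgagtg
Sdhb: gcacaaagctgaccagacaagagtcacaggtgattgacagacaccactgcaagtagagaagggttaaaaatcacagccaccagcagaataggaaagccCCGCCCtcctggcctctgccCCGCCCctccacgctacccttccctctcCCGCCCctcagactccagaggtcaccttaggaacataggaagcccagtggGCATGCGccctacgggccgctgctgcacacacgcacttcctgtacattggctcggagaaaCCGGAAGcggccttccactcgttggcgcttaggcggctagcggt

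Sdhd (chr9:50603800-50604099, minus strand), which encodes a membrane anchor of succinate dehydrogenase, had the list's single ERR match beside an ETS match.
Sdhd: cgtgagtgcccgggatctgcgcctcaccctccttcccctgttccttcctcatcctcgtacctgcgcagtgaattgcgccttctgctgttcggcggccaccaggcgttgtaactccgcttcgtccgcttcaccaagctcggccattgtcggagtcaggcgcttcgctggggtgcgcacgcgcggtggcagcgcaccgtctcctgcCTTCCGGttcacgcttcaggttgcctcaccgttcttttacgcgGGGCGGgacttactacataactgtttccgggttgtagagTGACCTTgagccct

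Ndufs3 (chr2:90904672-90904971, minus strand), a core subunit of complex I, and Uqcrc1 (chr9:108936398-108936697, plus strand), a core subunit of complex III, had ETS and NRF1 matches in that order, and no listed H3K4me3 peak at a gene end in either line. Ppargc1a (chr5:51567676-51567975, minus strand) is shown as the contrast, because its window had the lowest GC content of the list.
Ndufs3: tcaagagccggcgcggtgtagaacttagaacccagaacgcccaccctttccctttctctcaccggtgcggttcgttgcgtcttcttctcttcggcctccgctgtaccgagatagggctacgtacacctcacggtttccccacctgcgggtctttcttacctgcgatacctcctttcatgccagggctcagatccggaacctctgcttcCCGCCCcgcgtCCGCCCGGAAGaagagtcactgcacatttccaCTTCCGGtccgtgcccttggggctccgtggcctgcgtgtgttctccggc
Uqcrc1: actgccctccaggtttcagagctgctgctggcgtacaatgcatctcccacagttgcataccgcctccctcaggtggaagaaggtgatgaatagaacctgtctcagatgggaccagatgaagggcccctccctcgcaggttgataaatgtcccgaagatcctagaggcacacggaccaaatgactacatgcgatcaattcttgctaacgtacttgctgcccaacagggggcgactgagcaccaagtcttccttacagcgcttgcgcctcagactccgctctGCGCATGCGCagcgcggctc
Ppargc1a: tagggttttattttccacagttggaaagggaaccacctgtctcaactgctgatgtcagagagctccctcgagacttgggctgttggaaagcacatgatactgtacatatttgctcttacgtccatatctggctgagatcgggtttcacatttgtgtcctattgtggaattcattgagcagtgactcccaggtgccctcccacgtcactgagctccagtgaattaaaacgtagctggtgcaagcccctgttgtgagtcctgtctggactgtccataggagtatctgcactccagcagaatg

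The member promoters were rich in CpG. Their median GC content was 60.5%, against 56.3% over the 17491 protein-coding genes with a promoter window. The ratio of observed to expected CpG was above 0.6 in 25 of the 30 (83.3%), against 48.4% of all windows and 76.5% of the 9674 windows of genes with H3K4me3 at a gene end in both lines. Ppargc1a stood apart with 48.7% GC and a CpG ratio of 0.282.

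The motifs were present in few of the windows. The ETS letters were found in 6 members (20%, against 11.9% of all windows), namely Idh3b, Dlst, Sdhb, Sdhd, Ndufs3 with 2 matches, and Ndufs8. In 3 members the NRF1 core was found (10.0%, against 4.49%), namely Sdhb, Pdhb and Uqcrc1, and Uqcrc1 alone held the longer form (2.41% of all windows). The longer YY1 motif was found in Ndufs7 and Ndufa9 (6.67%, against 1.92%), in both shortly after the start, at base 25 and base 30. The YY1 core was found in the same 2 members only. Its share of 6.67% was near the 6.35% of all windows and the 7.11% of those with H3K4me3 in both lines. ERR letters occurred in 1 member (3.33%, against 4.06%). GC boxes were found in 18 (60.0%, against 46.3% of all windows and 67.6% of those with H3K4me3 in both lines). TATA letters (TATAAA) were found in Ndufs7 alone (3.33%, against 13.3%) and an E-box (CACGTG) in Ndufv1 alone (3.33%, against 7.91%). Among windows of genes with H3K4me3 in both lines, the shares were 18.6% for ETS letters, 6.77% for NRF1 cores and 3.87% for the longer NRF1 motif. They were 3.19% for the longer YY1 motif, 2.64% for ERR, 6.68% for TATA letters and 10.4% for the E-box. The members' shares for these motifs rest on 1 to 6 windows. Idh2, Cox5a, Ndufs3 and Uqcrc1 lack H3K4me3 at a gene end and lie outside that class.

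The lists differed in length between the lines, and counts around the members are to be read against that, with the read depth unknown. On assembled chromosomes the WT and mutant lists held 23154 and 17987 H3K4me3 peaks, 26415 and 18751 H3K27ac peaks, and 17373 and 3649 H3K4me1 peaks. Chromosomes 10 and 19 took a larger share of the mutant lists, 15.8% of H3K4me1 and 13.0% of H3K27ac peaks, against 8.27% and 9.15% in the WT line. Cs, Atp5b and Ndufs7 lie on chromosome 10 and Ndufs8 and Ndufv1 on chromosome 19. Among the melanocyte markers, Mitf, Pax3 and Pmel had H3K4me3 at a gene end in both lines, Sox10 and Mlana in mutant cells alone, and Tyr, Tyrp1 and Dct in neither.

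H3K4me3 was the mark that differed least around these genes. A peak lay at a gene end in both lines for 33 of the 38 members (86.8%), against 55.0% of all protein-coding genes, and at no member in 1 line alone (1.37% of all genes for the WT line and 1.68% for the mutant line). The other 5 were Idh2, Ndufs3, Uqcrc1, Cox5a and Atp5a1. For 2 of these the RefSeq start lies far from both ends. The start of Idh2, the mitochondrial NADP-dependent isocitrate dehydrogenase, lies 3258 bp inside the gene model, and that of Cox5a, a complex IV subunit, 3904 bp inside. Both starts had H3K4me3 in both lines. Ndufs3, Uqcrc1 and Atp5a1, the alpha subunit of ATP synthase, had no listed H3K4me3 peak near them. The nearest one to a gene end of Ndufs3 was 45.2 kb away in the WT list and 44.9 kb away in the mutant list. The distances were 40.4 and 41.3 kb for Uqcrc1 and 207 and 208 kb for Atp5a1. Whether regions were dropped from the H3K4me3 lists cannot be read from them and was not tested. A missing peak at these genes is therefore not read as a missing mark.

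H3K27ac peaks were listed at Ndufs3 and Uqcrc1 all the same. Ndufs3 had 1 WT and 3 mutant H3K27ac peaks at a gene end, all within 1 kb of its start. Uqcrc1 had a WT peak of 184 bp from 158 to 341 bases after its start. Around Atp5a1 the H3K27ac peaks covered 0.235 kb in WT and 0.0890 kb in mutant cells, none of it at a gene end. Among all genes acetylated at an end in both lines, 64 of 2758 (2.32%) had no H3K4me3 peak there.

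The width of the H3K4me3 peaks hardly differed. Over the 33 members with a peak in both lines, the widest gene-end peak had a median of 3.08 kb in WT cells and 3.01 kb in the mutant line. The ratio of mutant to WT width had a median of 0.993 and ran from 0.754 to 1.26. With peaks that cover the gene end in place of the widest within 1 kb, the median ratio was again 0.993 and the range 0.754 to 1.34, the highest being that of Atp5b. In the mutant line 18 peaks were narrower (54.5%) and 15 wider, against 58.8% narrower over the 12036 genes with such a peak in both lines, and none passed 1.5-fold (5.07% of those genes narrower and 3.84% wider by that much).

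**Figure D1:**
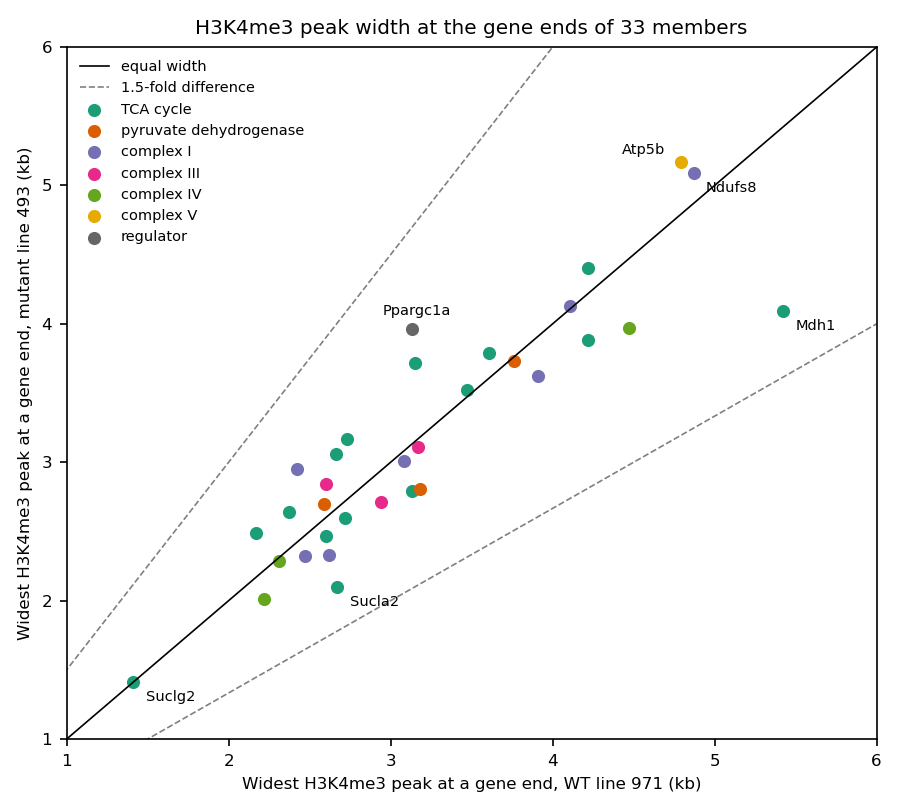
Width of the widest H3K4me3 peak within 1 kb of a gene end for the 33 members with one in both lines, WT line on the x axis and mutant line on the y axis (kb), coloured by role. All points lie between the dashed lines of a 1.5-fold difference, with Mdh1 at 5.42 and 4.09 kb the farthest below the line of equal width and Ppargc1a at 3.13 and 3.96 kb the farthest above. The point of Atp5b pairs peaks at different ends of the gene, and those of Ndufs8 and Ndufv2 show peaks beyond the far gene end.

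The broadest of these peaks lay at Mdh1, the cytosolic malate dehydrogenase of the malate-aspartate shuttle, at 5.42 kb in WT cells and 4.09 kb in the mutant line. Near Ndufs8, a complex I iron-sulfur subunit, the widest peaks of 4.87 and 5.09 kb lay beyond the far gene end, and those over its start had 2.88 kb in WT and 3.25 kb in mutant cells. At Atp5b, the catalytic beta subunit of ATP synthase, the widest WT peak (4.79 kb) lay beyond the far gene end, and the widest mutant peak (5.17 kb) over the start, where the WT peak had 3.87 kb. The narrowest was that of Suclg2, the GTP-forming succinyl-CoA ligase subunit, at 1.41 kb in each line. These Suclg2 peaks covered different stretches, from base -56 to 1354 of the start in WT cells and from base -539 to 868 in the mutant line. Each list held a further peak beside it, of 435 bp before the start in WT cells and 411 bp after it in the mutant line. Ogdh, the first enzyme of the 2-oxoglutarate dehydrogenase complex, had 2.17 and 2.49 kb, and the small complex IV subunit gene Cox5b 2.22 and 2.01 kb. The authors' H3K4me3 score stood at exactly 3100 in both lines for 13 of the 33 members, a value that recurs at strong peaks of both lists, and is not read as equal signal. Mdh1 shares its start region with Wdpcp, and in all 25 of the 38 members (65.8%) had an end of another gene within 1 kb of theirs, against 32.6% of all protein-coding genes. A peak there cannot be assigned to a single gene.

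Ppargc1a was marked at the upstream end of its gene model only. The model spans 662 kb on the minus strand. Its H3K4me3 peak of 3.13 kb in WT cells and 3.96 kb in the mutant line lay at the upper end. That end is 548128 bp upstream of the start whose promoter is printed above. That inner start had no peak of H3K4me3, H3K27ac or H3K4me1 in either line. Within 50 kb, H3K4me3 covered 4.58 kb in WT cells and 4.42 kb in the mutant line, H3K27ac 0.146 and 0 kb, H3K4me1 0 and 0 kb, and H3K27me3 1.52 kb in the WT list and 0 in the mutant list. Ppargc1a thus carried a promoter mark in both lines with little acetylation listed near it.

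Counted over 50 kb windows, H3K4me3 covered fewer bases in the mutant line for 25 members, more for 11 and the same for 2. That is 65.8% less and 28.9% more, against 54.5% and 23.0% of all genes, and 72.1% and 27.9% of the 12036 genes with H3K4me3 at an end in both lines (the H3K4me3 class). Median covered length was 6.35 kb in WT cells and 5.91 kb in the mutant line, with a median difference of -0.164 kb, against -0.124 kb over all genes and -0.516 kb over the H3K4me3 class. Mdh1 was the only member past 1.5-fold (2.63%, against 8.18% of all genes and 7.76% of the class), with 6.45 kb in WT cells and 4.09 kb in the mutant line. None was 1.5-fold higher (3.28% of all genes, 1.83% of the class).

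The next members with less in the mutant line were Uqcrc2, a core subunit of complex III, going from 9.64 to 7.50 kb, Cyc1, which encodes cytochrome c1, from 21.6 to 19.8 kb, and Dlat, the acetyltransferase of pyruvate dehydrogenase, from 13.0 to 11.3 kb. More was listed in the mutant line around Ndufs7, with 21.3 and 23.3 kb, Atp5b, with 21.2 and 23.0 kb, Sdhb, with 4.65 and 6.20 kb, and Cs, with 21.0 and 22.3 kb. All 5 members on chromosomes 10 and 19 were covered by more H3K4me3 in the mutant line, with a median difference of 1.29 kb, whereas 6 of the other 33 were. Of all genes, 41.4% on these chromosomes and 21.4% elsewhere had more in mutant cells, and of the H3K4me3 class 49.3% and 25.9%. In the class the summed H3K4me3 length in the mutant line was 97.2% and 88.7% of that in WT cells. A difference of copy number between the lines cannot be told apart from one of the mark, since the peak lists give no depth.

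**Figure D2:**
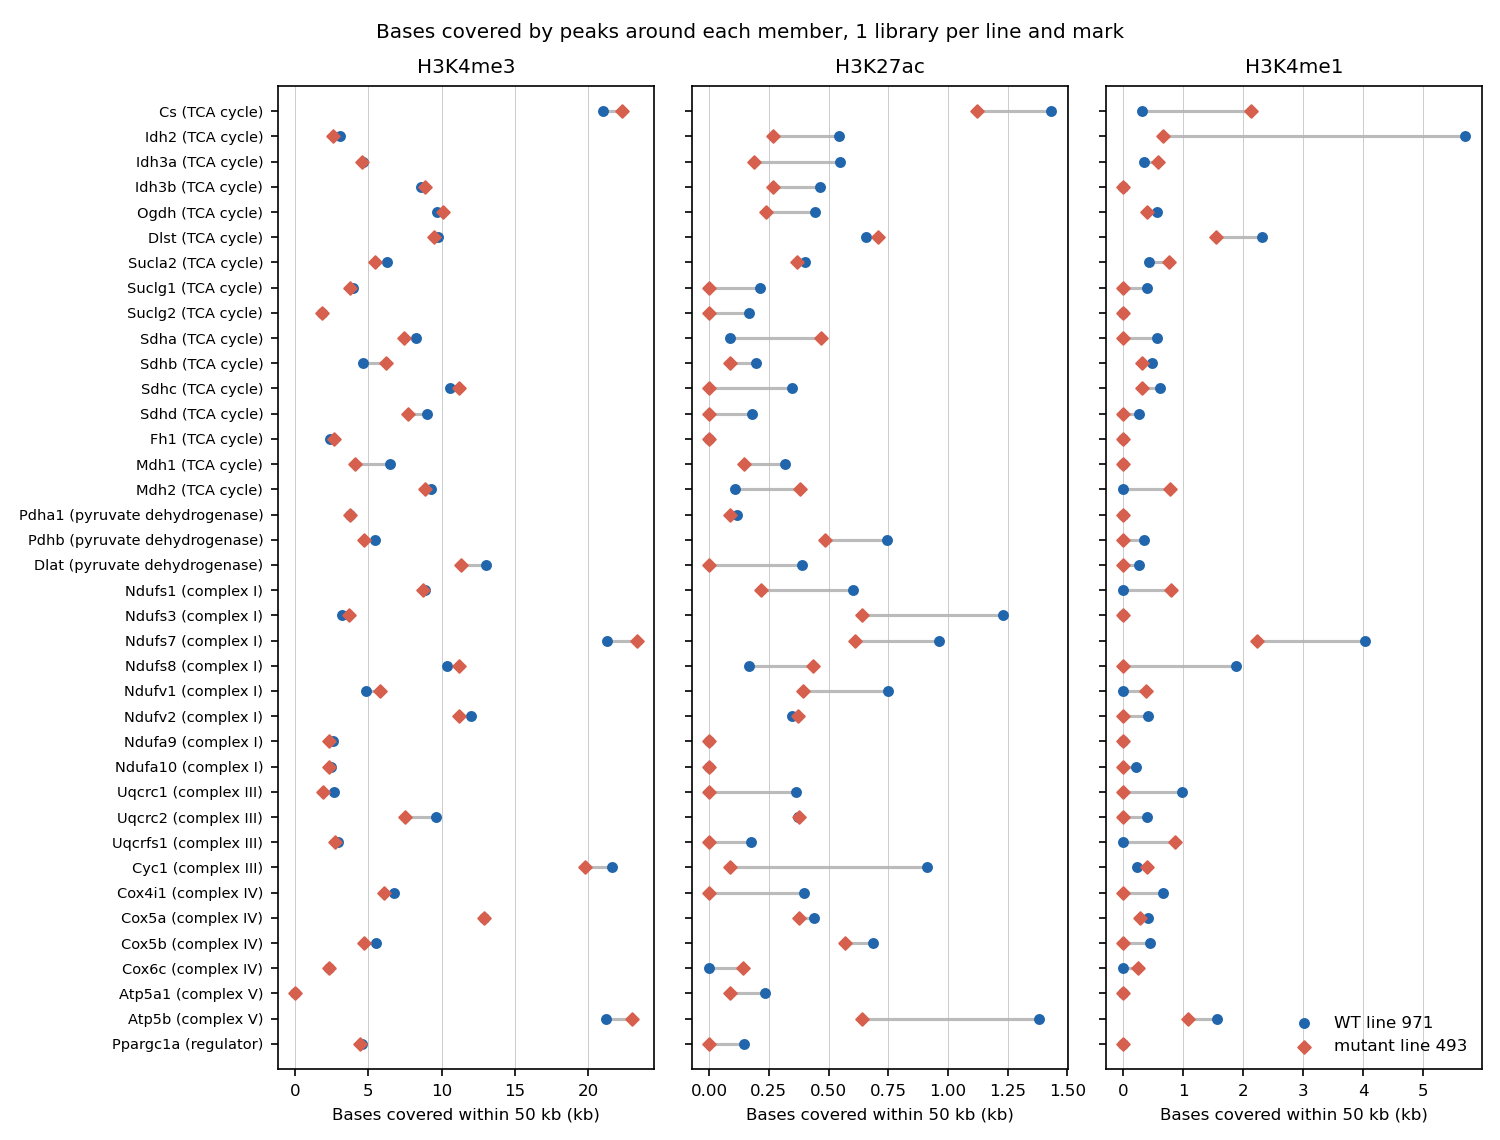
Peak-covered bases in windows of 50 kb around the gene ends (kb, 1 panel per mark, each with its own scale) for the 38 members, WT line as circles and mutant line as diamonds, joined by a grey line. Symbols coincide where the values are equal, and most pairs stay close for H3K4me3, while the mutant symbol lies to the left for 28 members in H3K27ac and 20 in H3K4me1.

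The H3K27ac state of the gene ends differed between the lines at 18 of the 38 members, in both directions. A peak lay at a gene end in both lines for 11 members (28.9%, against 12.6% of all genes), in the WT line alone for 11 (28.9%, against 16.1%), in the mutant line alone for 7 (18.4%, against 6.85%) and in neither for 9. Among genes with H3K4me3 at an end in both lines these shares were 22.3%, 27.1% and 11.1%. With lists of equal length the members' counts were 7 in both lines, 11 in the WT line alone and 11 in the mutant line alone, and in the more significant 50% of each list 2, 14 and 9. The shares of all genes and of the H3K4me3 class above are of the full lists, so these counts have no background here. Of the 7 members acetylated in the mutant line alone in the full lists, Cs, Ndufs7 and Ndufs8 are among the 5 on chromosomes 10 and 19. The other 4 are among the 33 elsewhere. Of the H3K4me3 class, 153 of 1016 genes on these chromosomes and 1177 of 11020 elsewhere were acetylated in the mutant line alone.

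Of the 11 WT-alone members, 5 encode subunits of succinyl-CoA ligase or succinate dehydrogenase. The other 2 members of these enzymes, Sucla2 and Sdha, were not in that group. This grouping by enzyme was singled out after the states were seen. The WT-alone share of the members, 28.9%, was near the 27.1% of the H3K4me3 class, and each of the 5 calls rests on a single short peak. Suclg1, the shared alpha subunit of the ligase, had a WT peak of 212 bp across its start at a fold enrichment of 5.49 over input, and Suclg2 a WT peak of 168 bp at 5.76. No mutant H3K27ac peak lay within 50 kb of either. Sdhb had a WT peak of 108 bp at 6.90, Sdhc, a membrane anchor, one of 107 bp at 6.03, and Sdhd one of 90 bp at 5.66. The mutant list held 0.0890 kb of H3K27ac around Sdhb and none around Sdhc or Sdhd. Sucla2, the ATP-forming ligase subunit, was the exception in the ligase, with overlapping peaks of 403 bp in WT cells and 192 bp in the mutant line. Sdha, the flavoprotein subunit of succinate dehydrogenase, went the other way, with a mutant peak of 143 bp at 4.08, from base -720 to base -578 of its start, and none in the WT list there. The start of Sdha is shared with Ccdc127, and that of Sdhd with Timm8b.

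Ogdh and Dlst, subunits of the 2-oxoglutarate dehydrogenase complex, also had a gene-end H3K27ac peak in the WT line alone. Ogdh had a WT peak of 88 bp at 5.77, from 56 to 143 bases after its start, and Dlst, the succinyltransferase, one of 119 bp at 6.36 before its start. In the respiratory chain the WT-alone members were Ndufv2, a complex I subunit of the NADH-oxidising module (182 bp at 5.84), Uqcrc1 (184 bp at 5.33), Uqcrfs1, the Rieske iron-sulfur protein of complex III (88 bp at 5.80), and Cox4i1, a complex IV subunit with WT peaks of 88 bp at 5.28 and 187 bp at 5.96. Uqcrc1, Uqcrfs1 and Cox4i1 had no mutant H3K27ac peak anywhere within 50 kb. Dlst and Ndufv2 had slightly more H3K27ac within 50 kb in the mutant line, going from 0.655 to 0.709 kb and from 0.346 to 0.373 kb. The other WT-alone members had less.

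The mutant-alone group held Cs, Sdha, Mdh2, Pdhb, Ndufs7, Ndufs8 and Cox6c. Cs had 2 mutant peaks after its start, of 125 bp at a fold of 9.11 and 113 bp at 6.27, and no WT peak at either gene end. The first is the highest fold of any H3K27ac peak at a member's end in either list, where WT folds ran from 3.49 to 6.90 and mutant folds from 3.91 to 9.11. Mdh2 had a mutant peak of 227 bp at 4.23, and Pdhb, the beta subunit of the decarboxylase of pyruvate dehydrogenase, mutant peaks of 152 bp at 3.91 and 116 bp at 5.83. Ndufs7 had mutant peaks of 106 bp at 6.56 and 132 bp at 5.28, Ndufs8 one of 99 bp at 6.34, and the small complex IV subunit gene Cox6c one of 143 bp at 6.51. Pdhb and Ndufv2 counted as acetylated in both lines when the distance was set to 2.5 kb, and Mdh2, Sdha, Uqcrc1 and Mdh1 had a peak in neither line in the more significant 50% of each list.

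In the 11 members acetylated in both lines, the WT and mutant peaks overlapped in 3, Idh3a, Sucla2 and Atp5b, and the median gap between them was 400 bp. Over the whole lists 8.65% of WT and 12.2% of mutant H3K27ac peaks overlapped one of the other line. The 26 WT peaks at members' ends had a median width of 114 bp and a median fold of 5.71, and the 23 mutant peaks 116 bp and 5.47. Atp5b had a WT peak from 159 to 261 and a mutant peak from 218 to 320 bases after the start. Idh3b, a regulatory subunit of the NAD-dependent isocitrate dehydrogenase, had the WT peak just before its start (base -115 to base -28) and the mutant peak just after it (base 20 to base 108). Mdh1 had them farthest apart, from base 740 to 827 for the WT peak and from base -840 to -696 for the mutant peak.

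**Figure D3:**
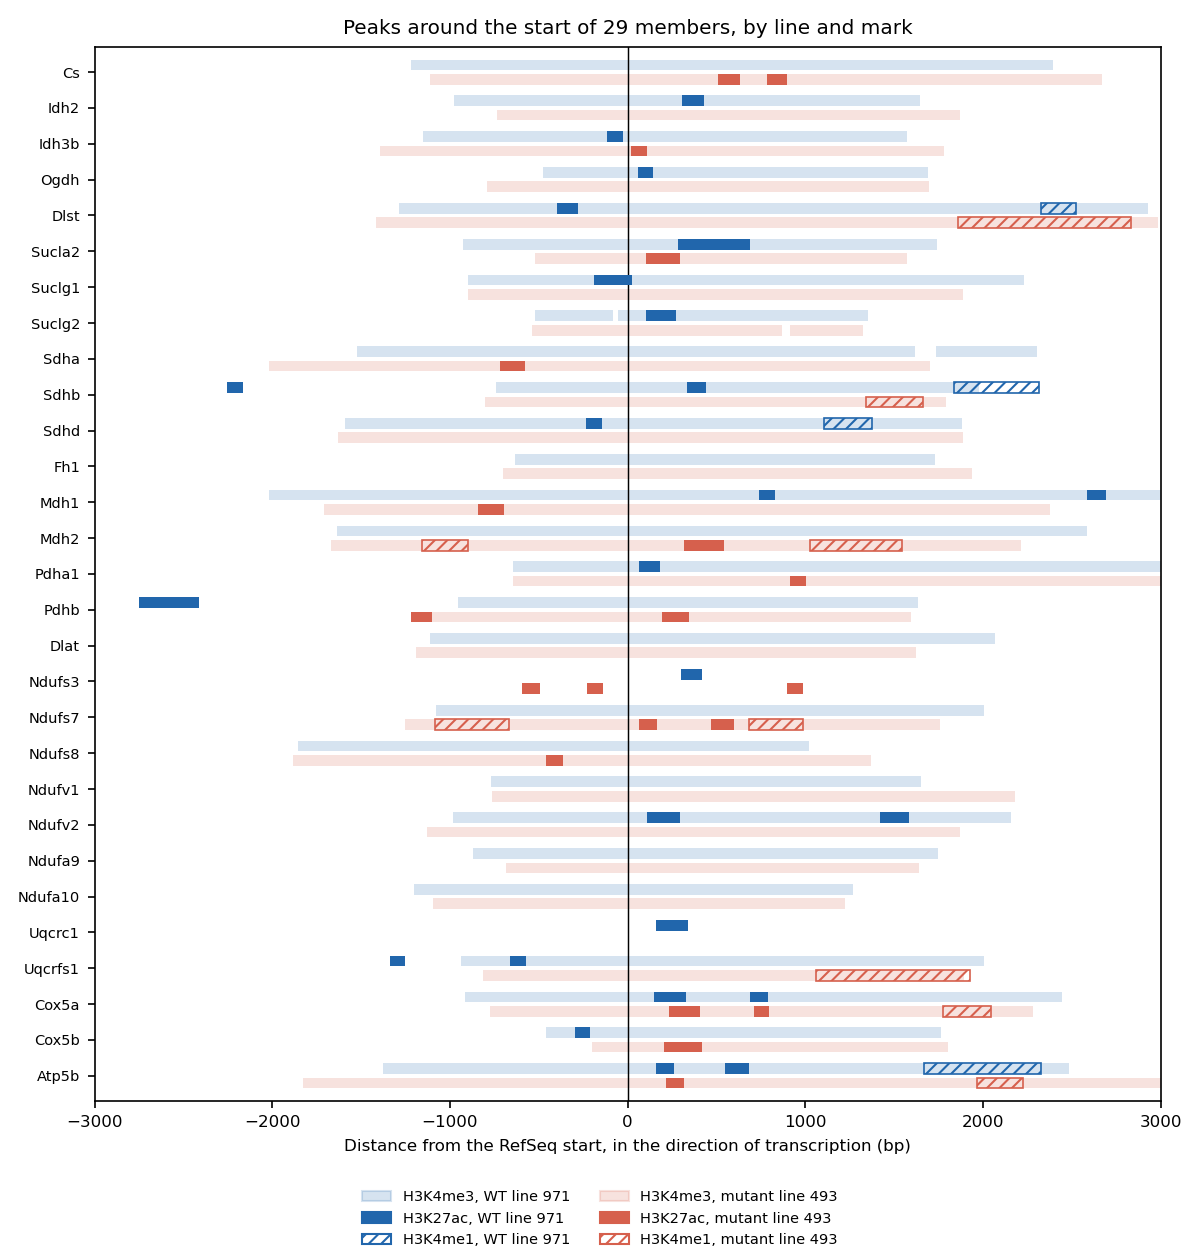
Peaks within 3 kb of the RefSeq start of 29 members (x axis, distance in bp in the direction of transcription), WT line in blue above and mutant line in red below: pale bars are H3K4me3, solid bars H3K27ac and hatched bars H3K4me1 (Ppargc1a, whose start in the table lies far from its gene ends, is left out). Most of the narrow H3K27ac peaks lie inside H3K4me3 domains that nearly coincide between the lines. Exceptions are Ndufs3 and Uqcrc1, where no H3K4me3 peak is listed, and a few peaks upstream of Sdhb, Pdhb and Uqcrfs1.

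The remaining members acetylated in both lines were Pdha1, the alpha subunit of the pyruvate decarboxylase, with peaks of 115 and 89 bp separated by 734 bp, Ndufs1, Uqcrc2, Cyc1 and Cox5b, with gaps of 207, 400, 445 and 416 bp, and Ndufs3, with 438 bp. Idh3a encodes the catalytic subunit of the NAD-dependent isocitrate dehydrogenase and Ndufs1 the largest complex I core subunit. The 9 members acetylated at no gene end were Idh2, Fh1 (fumarase), Dlat, Ndufv1, Ndufa9, Ndufa10, Cox5a, Atp5a1 and Ppargc1a. At the RefSeq start, Idh2 was acetylated in the WT line alone and Cox5a in both. Fh1, Ndufa9 and Ndufa10 had no H3K27ac peak within 50 kb in either line and single H3K4me3 peaks of 2.37 and 2.64 kb, 2.62 and 2.33 kb, and 2.47 and 2.32 kb.

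Within 50 kb, H3K27ac covered fewer bases in the mutant line for 28 members (73.7%), more for 7 (18.4%) and the same for 3. Over all genes 54.1% were less and 20.3% more covered, and over the H3K4me3 class 70.1% and 24.3%. By at least 1.5-fold, 23 members were less covered (60.5%, against 42.3% of all genes and 54.3% of the class) and 4 more (10.5%, against 11.8% and 13.4%). The median was 0.367 kb in WT cells and 0.203 kb in the mutant line. Summed over the members, the mutant line had 59.2% of the WT length, against 60.7% summed over the windows of all genes. The whole H3K27ac lists covered 2.39 Mb in mutant and 3.62 Mb in WT cells.

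Cyc1 had the largest difference, from 0.914 to 0.0890 kb, followed by Atp5b from 1.38 to 0.642 kb, Ndufs3 from 1.23 to 0.641 kb and Cox4i1 from 0.397 kb to 0. Within 20 kb Atp5b had more in the mutant line, by 0.106 kb. The mutant line had more around Sdha, with 0.0880 and 0.467 kb, Mdh2, with 0.107 and 0.381 kb, Ndufs8, with 0.167 and 0.433 kb, and Cox6c, with 0 and 0.143 kb. These 4 are the members past 1.5-fold, and each was also acetylated at its end in mutant cells alone. The window includes the gene end, so both readings share peaks. At Cox6c the 0.143 kb is the gene-end peak itself. Cs was not among these 4. Its window had 1.43 kb in WT cells and 1.12 kb in mutant cells, so the peaks near its start in the mutant list stood in a window with fewer acetylated bases in all.

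In H3K4me1 the values of the members lay farthest from those of all genes. Summed over the 38 windows it covered 23.8 kb in WT cells and 13.8 kb in the mutant line, so that the mutant line had 57.8% of the WT length. Over all protein-coding genes it had 22.2% and over the H3K4me3 class 23.5%. With the WT list cut to the length of the mutant list the members stood at 244% and the class at 82.7%, and in windows of 100 kb at 35.1% and 21.6%. In peaks, 51 WT and 32 mutant peaks lay in the members' windows, or 62.7 mutant peaks per 100 WT peaks, against 21.0 over the whole lists and 23.6 in the windows of the class. The members outside chromosomes 10 and 19 had 49.5%, against 20.1% of that class outside those chromosomes, and in peak numbers 42.9 per 100. Without Cs the members likewise had 49.5%. The windows of Sdhd and Dlat overlap, as do those of Ndufs8 and Ndufv1, and a base in both was counted for each gene.

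**Figure D4:**
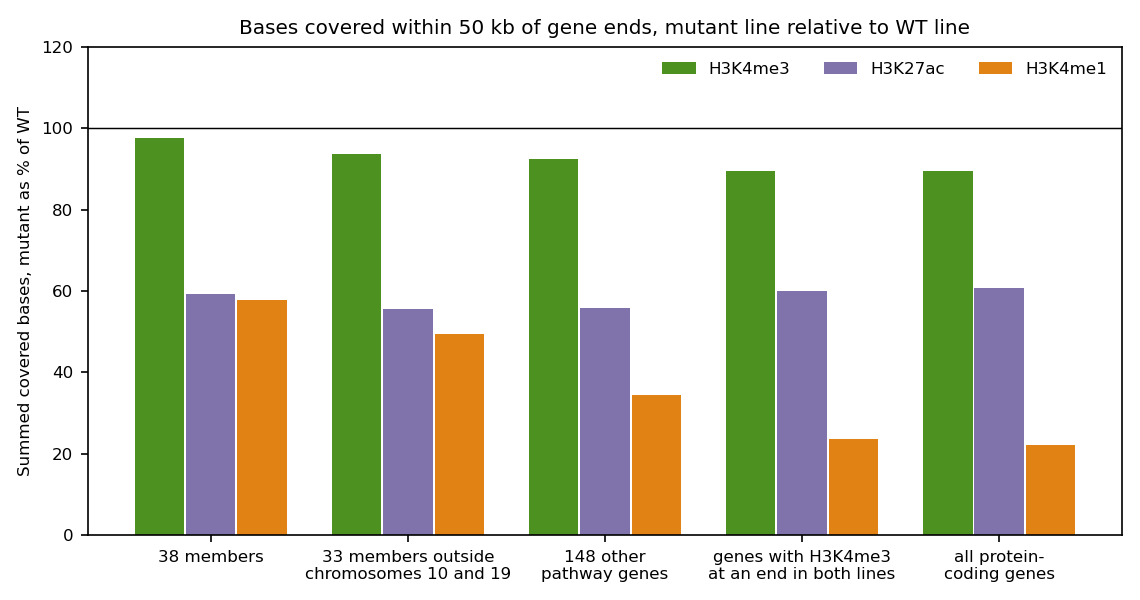
Bases covered within 50 kb of gene ends, summed over each set of genes, mutant line as a percentage of WT line (y axis, from 0), for H3K4me3 in green, H3K27ac in purple and H3K4me1 in orange, from 1 library per bar and line. H3K27ac stands at 59.2% for the 38 members and 60.7% for all genes, whereas H3K4me1 stands at 57.8% for the members, 34.4% for 148 other genes of the pathway and 22.2% for all genes.

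By member, 20 were less covered by H3K4me1 in the mutant line (52.6%, against 40.7% of all genes and 53.7% of the class), 9 more (23.7%, against 9.85% and 14.2%) and 9 had none in either line. At least 1.5-fold, 17 were less covered (44.7%, against 38.4% and 50.4%) and 9 more (23.7%, against 8.03% and 11.6%). Of these 9, Cs and Ndufv1 lie on chromosomes 10 and 19, and 7 of 33 lie elsewhere. By any amount, 21.2% of all genes on these chromosomes and 8.90% elsewhere had more in mutant cells. In the class these shares were 28.4% and 12.9%. With 9 genes and peaks numbering from 1 to 6 in each window, these counts rest on few peaks.

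The largest difference upward in the mutant line was at Cs, from 1 WT peak of 0.309 kb to 6 mutant peaks covering 2.12 kb. The widest of them, 822 bp, began 5184 bases after the start, inside the gene. Uqcrfs1 had 0 in WT cells and 0.868 kb in mutant cells, Ndufs1 0 and 0.801 kb, and Mdh2 0 and 0.778 kb. Smaller differences in this direction were at Sucla2, from 0.426 to 0.767 kb, Ndufv1, from 0 to 0.387 kb, Cox6c, from 0 to 0.241 kb, Idh3a, from 0.348 to 0.578 kb, and Cyc1, from 0.227 to 0.397 kb. The direction depended on the window for 4 of these: in windows of 100 kb Mdh2, Sucla2 and Ndufv1 had less in the mutant line (-3.93, -1.13 and -1.12 kb), and in windows of 20 kb Idh3a did (-0.348 kb).

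The largest difference downward was at Idh2, from 11 WT peaks covering 5.69 kb to 1 mutant peak of 0.656 kb. Those 11 peaks were spread over the whole window, from 36568 bp beyond the lower gene end to 48561 bp beyond the upper, and the mutant peak overlapped 1 of them. Ndufs8 went from 1.87 kb to 0, Ndufs7 from 4.02 to 2.23 kb and Uqcrc1 from 0.975 kb to 0. With lists of equal length Ndufs7 had 0.745 kb more in the mutant line, and mutant minus WT was -0.0180 kb at Idh2, -0.526 kb at Ndufs8 and 0 at Uqcrc1. At Uqcrc1 it was also 0 in windows of 20 kb and in the more significant 50% of each list. Idh2 and Ndufs7 together thus held 9.71 kb of the 23.8 kb in the WT windows.

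The mutant peaks sat in another setting than the WT peaks. Of the 32 mutant H3K4me1 peaks around the members, 28 overlapped an H3K4me3 peak of the same line (87.5%, 95% Wilson interval 71.9% to 95%), against 14 of the 51 WT peaks (27.5%, 17.1% to 40.9%). These intervals cover counting error only. Over the whole lists the shares were 49.8% in the mutant and 22.9% in the WT line, and in the windows of the H3K4me3 class 60.3% and 27.8%. Outside chromosomes 10 and 19, 12 of 15 mutant peaks (80.0%) and 6 of 35 WT peaks (17.1%) overlapped H3K4me3. In a WT list cut to the length of the mutant list, 2 of 12 did (16.7%). This comparison was added after the peak positions had been seen.

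At several members the mutant H3K4me1 lay on the shoulders of the promoter. Mdh2 had mutant peaks from base -1159 to -897 and from base 1029 to 1543 of its start, on either side of the mutant H3K27ac peak, and no WT peak in the window. Ndufs7 had mutant peaks from base -1084 to -668 and from base 684 to 985, whereas its widest WT peak, 1547 bp, lay across the far end of the gene. Uqcrfs1 had a mutant peak from 1058 to 1925 bases after its start. Within 3 kb of the start, 7 of 30 members had a mutant peak (23.3%: Atp5b, Cox5a, Dlst, Mdh2, Ndufs7, Sdhb and Uqcrfs1) and 4 a WT peak (13.3%: Atp5b, Dlst, Sdhb and Sdhd). Over all genes with a promoter window the shares were 7.37% and 7.83%, and over those with H3K4me3 within 3 kb of the start in both lines 12.6% and 11.8%. The shares of all genes were thus nearly equal in the lines although the mutant list was far shorter.

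Within 1 kb of a gene end H3K4me1 was rare. Ndufs7 had it in both lines (0.475% of all genes, 0.756% of the class), Sdhc and Mdh2 in the mutant line alone (5.26% of members, against 1.79% of all genes and 3.22% of the class), and no member in the WT line alone (3.73% of all genes, 5.26% of the class). The Sdhc peak of 306 bp lay 898 bp inside the gene model.

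Peaks were shared between the lines to very different extents by mark. Around the members, 106 of 122 WT H3K4me3 peaks (86.9%, 79.8% to 91.8%) overlapped a mutant peak, against 72.2% of the whole list, and all 37 of those at members' ends did. In the other direction 103 of 111 mutant peaks (92.8%, 86.4% to 96.3%) overlapped a WT peak, against 91.8% of the whole list. For H3K27ac, 11 of 109 WT peaks did (10.1%, 5.73% to 17.2%, against 8.65%), and 13.8% of the 80 mutant peaks overlapped a WT peak (12.2% over the list). For H3K4me1 it was 6 of 51 WT peaks (11.8%, 5.51% to 23.4%, against 6.63%) and 6 of 32 mutant peaks (18.8%, 8.89% to 35.3%). Over the whole mutant list 31.7% of H3K4me1 peaks were shared, which lies inside the members' interval.

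H3K27me3 was not listed within 1 kb of the ends of these genes. None of the 38 members had a peak of the WT list within 1 kb of a gene end, against 9.94% of all genes, and none had a peak of the mutant list (0.219%). The mutant list is named as called against the WT H3K27me3 library, so the 2 lists were not compared. Within 50 kb, 17 members had a WT peak (44.7%, against 42.4%) and 4 had one of the mutant list (10.5%, against 5.77%), namely Idh3b, Suclg1, Ndufs7 and Ndufs8. Their covered lengths in the mutant list ran from 0.151 kb at Ndufs7 to 0.253 kb at Idh3b. Ndufs7 and Ndufs8 lie on the chromosomes that took a larger share of the mutant lists. There 2 of 5 members had such a peak (40.0%, against 13.1% of all genes there). Elsewhere 2 of 33 members did (6.06%), near the 5.15% of all genes elsewhere. The largest WT lengths were around Ndufa10, a complex I accessory subunit, at 13.5 kb, Mdh2 at 10.9 kb, Cox5a at 5.18 kb and Cox4i1 at 3.90 kb. WT H3K27me3 peaks thus lay within 50 kb of these genes about as often as of all genes, and none lay on their ends.

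The same counts were made for the other genes of the pathway. A wider list of 148 genes held the remaining pyruvate dehydrogenase, TCA cycle and respiratory chain genes with assembly factors and regulators. H3K4me3 lay at a gene end in both lines for 139 (93.9%). It was in the WT line alone for Cox6a2, a muscle form of a complex IV subunit, and in the mutant line alone for Cox6b2, a testis form, and Esrrg, an estrogen-related receptor. Covered bases of H3K4me3 were lower in the mutant line for 95 (64.2%, against 72.1% of the H3K4me3 class) and higher for 53 (35.8%, against 27.9%), and those of H3K27ac lower for 110 (74.3%, against 70.1%) and higher for 34 (23.0%, against 24.3%). For H3K27ac, 39 were acetylated in both lines (26.4%, against 22.3% of the class), 39 in the WT line alone (26.4%, against 27.1%) and 19 in the mutant line alone (12.8%, against 11.1%). All 14 further complex V genes, a group singled out after its values were seen, had fewer H3K27ac bases in the mutant line, from 1.38 to 0.339 kb at Atp5o, which encodes a stalk subunit, and from 0.722 kb to 0 at Atp5j.

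H3K4me1 around the wider list was lower in the mutant line for 71 genes (48.0%, against 40.7% of all genes and 53.7% of the H3K4me3 class). It was higher for 32 (21.6%, against 9.85% and 14.2%). Its summed length was 34.4% of that in the WT line, between the members and all genes. Of the mutant peaks 91 of 108 overlapped H3K4me3 (84.3%), and of the WT peaks 100 of 239 (41.8%). The largest differences upward, mutant minus WT, were 1.72 kb at Uqcc3, 1.66 kb at Pprc1 and 1.47 kb at Cox8a, all on chromosome 19. The largest differences downward were at Cox4i2, the hypoxia-responsive isoform of the complex IV subunit 4, from 11.4 to 1.96 kb, Uqcc2, a complex III assembly factor, from 8.95 to 0.556 kb, and Pdk2, a kinase that inhibits pyruvate dehydrogenase, from 7.04 to 0.489 kb. H3K4me3 was also lower there in the mutant line, with 15.5 and 6.55 kb around Cox4i2 and 23.1 and 15.5 kb around Pdk2. Atp5d, which encodes the delta subunit of ATP synthase, had H3K4me1 going from 7.59 to 2.62 kb and H3K4me3 from 43.3 to 36.0 kb. Ppard and Ppara, nuclear receptors of fatty acid oxidation, had H3K4me1 going from 5.39 kb to 0 and from 5.15 to 0.200 kb, and H3K4me3 from 20.5 to 14.9 kb and from 17.0 to 11.5 kb. Ppara, Cox6a2 and Esrrg were the 3 genes of the list with a WT H3K27me3 peak at a gene end (2.03%).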

How the data were processed

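The peak lists were those the authors deposited, 1 per library, on mm10. FastQC, MultiQC and MACS2 are named per the submitters' processing notes; versions, aligner, read filters and depth were not given in the sources used here. For each MACS2 peak the authors deposited a fold enrichment (a ratio to the control) and −log10 p and −log10 q values. The H3K4me3 lists are in an older MACS layout, with a deposited score that reaches 50 at the least. By the list names, the mutant H3K27me3 library was called against the WT H3K27me3 library and the others against the line's own input. No rescaling was done, and folds and scores served only to describe or rank peaks within a list.

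Gene models and promoter windows came from RefSeq tables of GRCm38.p6, the assembly of mm10 (Python 3.11.15, pandas 2.3.3, numpy 2.4.6, scipy 1.17.1). Peaks on the 19 autosomes, X and Y were kept. A shared peak overlapped by at least 1 bp. With 1 library per line and mark no test was possible, and members were set beside all protein-coding genes and beside those with H3K4me3 at an end in both lines, in place of random genes. The counting was tested on simulated data. All members and the lists of other genes were chosen with earlier results of these data known. Named members are those whose gene-end state differed, the 4 largest differences per mark and direction, the widest and narrowest H3K4me3 peaks, Cs and Ppargc1a; other members are given for completeness. From the wider list some of the largest differences per mark are given, and a gene that the rule took is not reported here. Alternatives were a 2.5 kb gene-end distance, RefSeq starts only, windows of 20 and 100 kb, the more significant 50% of each list, lists of equal length, sharing within 1 kb, and leaving out chromosomes 10 and 19. Leaving out Cs, and the overlap of H3K4me1 with H3K4me3 and its alternatives, were added after seeing the data.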

Additional observations from a re-analysis of the deposited data

How the results depend on the processing

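No paired analysis was possible because each line and mark has 1 library, and for the same reason no replicate was left out. Read depth behind each peak is unknown, so peaks just under a list's threshold are not seen, and the narrow H3K27ac lists share few peaks at 1 bp. Each setting below replaces 1 choice, except that for the 148 other genes the 2.5 kb distance and the 20 kb window were set together, and the cause of a change was not tested unless fewer peaks or genes give it.

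At a gene-end distance of 2.5 kb, H3K4me3 was in the WT line alone at 1 member, H3K4me1 in the WT alone at 3, in the mutant alone at 5 and in both at 4, and WT H3K27me3 at 1. With only the top 50% of each list by significance, H3K4me3 was in the WT alone at 1 member, H3K27ac in both at 2 and H3K4me1 in the mutant alone at 1. With lists of equal length, H3K27ac was in the mutant alone at 11 members and in both at 7, and H3K4me1 in both at 0. Without chromosomes 10 and 19, H3K27ac was in the mutant alone at 4 and H3K4me1 in both at 0; at RefSeq starts H3K4me1 was in both at 0.

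For covered bases, H3K4me3 was more covered in the mutant line at 6 members without chromosomes 10 and 19, and 1.5-fold less at 2 (100 kb windows) and 3 (top 50%). H3K27ac was more covered at 11 and 1.5-fold more at 7 with equal lists. H3K4me1 was less covered at 12 (20 kb), 13 (top 50%) and 6 (equal lists), more at 15 and 1.5-fold more at 14 (equal lists), and 1.5-fold less at 11 (20 kb) and 4 (equal lists). Median differences in kb, in the order 20 kb, 100 kb, top 50%, equal lists and without chromosomes 10 and 19, were -0.0920, -0.254, -0.227, -0.0165 and -0.230 for H3K4me3, -0.119, -0.196, -0.112, -0.105 and -0.168 for H3K27ac, and 0, -0.494, 0, 0 and -0.137 for H3K4me1.

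The summed length in the mutant line as a percentage of WT, in the same order, was 97.1%, 92.7%, 95.3%, 101% and 93.8% for H3K4me3, 67.3%, 58.9%, 54.0%, 77.3% and 55.6% for H3K27ac, and 73.8%, 35.1%, 43.9%, 244% and 49.5% for H3K4me1, with 49.5% without Cs. For H3K4me1 the class with H3K4me3 in both lines gave 28.6%, 21.6%, 21.5% and 82.7% under the first 4 settings, below the members in each.

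Shared H3K4me3 peaks were 95.2% (equal lists) and 91.9% (top 50%) of WT and 100% (top 50%) of mutant peaks. Within 1 kb, 41.3% of WT and 43.8% of mutant H3K27ac peaks were shared. For H3K4me1, 0% of WT and 0% of mutant peaks (top 50%) and 3.12% of mutant peaks (equal lists) were shared. WT H3K4me1 peaks on H3K4me3 were 16.7% with equal lists, and mutant ones 100% in the top 50%. Of the 148 other genes, H3K4me1 was in the WT alone at 15 and in the mutant alone at 18 with 2.5 kb, and less covered at 43 with 20 kb.

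Single members called at 1.5-fold changed sign for H3K27ac in 7 of 108 values and for H3K4me1 in 10 of 104. In kb, mutant minus WT, the H3K27ac values were Ogdh 0.0570 and Ndufv1 0.131 (100 kb), Ndufs7 0.215, Ndufv1 0.0770, Atp5a1 0.0890 and Atp5b 0.106 (20 kb), and Mdh1 0.0210 (equal lists). Those for H3K4me1 were Idh3a -0.348 (20 kb), Sdhc 0.306 (20 kb, top 50% and equal lists), Sucla2 -1.13, Mdh2 -3.93 and Ndufv1 -1.12 (100 kb), and Sdhb 0.318, Ndufs7 0.745 and Cox5a 0.272 (equal lists).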
